A study of Mus musculus with 12 samples.

Results

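The myeloid C-type lectins described here are 9 genes, taken by symbol from a table of 55401 genes: Clec4a1, Clec4a2, Clec4a3, Clec4b1, Clec4n, Clec5a, Clec7a, Clec10a and Clec12a. All 9 had a value above 0 in every group, and 8 of them passed the filter on low values (at least 1 TPM, a length-scaled share of the RNA in a library, in at least 3 libraries). Clec4b1 was the 1 member left untested. The RNA came from orthotopic tumors of 4T1, a mouse mammary carcinoma line, grown in Balb/c mice after injection of 100000 cells by the labels. The study's methods state a smaller number of 4T1 cells, so this number is uncertain too. Mice received the control (isotype IgG1-Fc), recombinant IL10-Fc protein (called IL-10-Fc), a CSF1R antibody (called aCSF1R; CSF1R is the colony stimulating factor 1 receptor), or the IL10/CSF1R fusion protein BF10, which joins interleukin-10 to that antibody. There were 3 tumors in each group, and each tumor gave 1 library, named by the number in its title. Treatment started at a tumor volume of 100 mm3; the labels state 6 doses, while the series description and the methods state fewer, so the number behind these samples is uncertain. All tumors arose from 1 cell line in 1 mouse strain. The labels do not say more about how the 3 tumors of a group were obtained, so p-values measure the spread between these tumors.

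C-type lectins of myeloid cells are surface receptors that read sugars, lipids and material from dying cells. Some carry an inhibitory motif in their own tail (Clec4a2, also called DCIR1, and Clec12a). Others pair with an adaptor that carries an activating motif: Clec4n (dectin-2) and Clec4b1 (DCAR) use the Fc receptor gamma chain encoded by Fcer1g, and Clec5a (MDL-1) uses DAP12, encoded by Tyrobp. Clec7a (dectin-1), the receptor for fungal beta-glucan, signals through its own tail and the kinase Syk to Card9, and Clec10a (MGL1) binds galactose-type sugars. CSF1R, the target of the antibody, is the receptor that maintains most tissue macrophages, cells that carry many of these lectins.

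In GRCm38, 8 members lie on chromosome 6 and Clec10a lies on chromosome 11 (chr11:70156197-70170834, plus strand, 10 exon blocks). The Clec4 genes form a run on the plus strand, from Clec4a1 (chr6:122921848-122934619, 6 exon blocks) and Clec4a3 (chr6:122952515-122969875, 7 exon blocks) through Clec4b1 (chr6:123049962-123071555, 6 exon blocks) and Clec4a2 (chr6:123106428-123143999, 10 exon blocks) to Clec4n (chr6:123229843-123247021, 7 exon blocks). Clec12a (chr6:129342691-129365303, plus strand, 8 exon blocks) and Clec7a (chr6:129461591-129472779, minus strand, 6 exon blocks) lie close together further along, and Clec5a (chr6:40574894-40585821, minus strand, 7 exon blocks) lies apart. The annotation lists Clec7a as a polymorphic pseudogene and the other 8 as protein coding. Stretches of 75 bases shared with another gene made up 4.44% of Clec10a, all with Mgl2, 3.24% of Clec4a2, with Clec4a4 and Clec4b1, and 1.02% of Clec4b1. The other 6 members shared none. Only exact matches were counted, so for these 3 a read of a related gene can match without a mismatch. Reads that align with mismatches were not examined for any member.

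The windows around the transcription start are shown for the pair of members that differed most between aCSF1R and control (Clec4a2 and Clec5a), for the member with the largest change in BF10 against control (Clec12a) and for Clec4a1, the member with the smallest difference between aCSF1R and control. RefSeq windows (GRCm38.p6) of 300 bases, from 250 bases before to 50 after the start, were matched for 7 of the 9 members. Clec4n and Clec10a had no matched window. Capitals mark GAGGAA or its reverse complement, the core bound by PU.1, a factor used by many myeloid genes. The windows are Clec4a2 (chr6:123122440-123122739, plus strand), Clec5a (chr6:40585756-40586055, minus strand), Clec12a (chr6:129349994-129350293, plus strand) and Clec4a1 (chr6:122921598-122921897, plus strand).
Clec4a2: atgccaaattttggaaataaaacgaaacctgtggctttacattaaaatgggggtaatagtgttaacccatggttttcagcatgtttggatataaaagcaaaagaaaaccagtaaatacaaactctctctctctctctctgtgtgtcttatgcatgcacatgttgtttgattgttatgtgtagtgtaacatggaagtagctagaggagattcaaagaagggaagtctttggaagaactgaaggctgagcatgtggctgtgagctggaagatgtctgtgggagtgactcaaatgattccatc
Clec5a: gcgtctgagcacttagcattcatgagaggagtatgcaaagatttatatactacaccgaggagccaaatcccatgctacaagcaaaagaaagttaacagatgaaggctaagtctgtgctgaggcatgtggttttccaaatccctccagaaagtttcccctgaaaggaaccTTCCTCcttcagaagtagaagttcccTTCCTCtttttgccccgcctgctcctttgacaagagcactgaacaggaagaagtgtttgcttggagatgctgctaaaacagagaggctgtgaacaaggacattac
Clec12a: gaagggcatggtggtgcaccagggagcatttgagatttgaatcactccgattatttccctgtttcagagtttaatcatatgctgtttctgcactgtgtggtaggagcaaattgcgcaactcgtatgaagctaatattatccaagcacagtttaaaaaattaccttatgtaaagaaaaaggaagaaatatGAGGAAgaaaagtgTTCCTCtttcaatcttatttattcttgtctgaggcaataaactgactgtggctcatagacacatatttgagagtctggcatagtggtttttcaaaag
Clec4a1: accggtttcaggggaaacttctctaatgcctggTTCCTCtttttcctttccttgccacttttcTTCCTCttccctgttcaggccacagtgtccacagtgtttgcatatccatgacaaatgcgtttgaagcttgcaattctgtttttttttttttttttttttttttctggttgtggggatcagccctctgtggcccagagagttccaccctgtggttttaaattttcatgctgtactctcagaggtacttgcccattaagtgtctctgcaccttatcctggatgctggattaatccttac
The PU.1 core was found on either strand in at least 1 window of 6 of the 7 members, and in 28.3% of 32851 windows of the same length. The units differ, since Clec4a3 and Clec7a had 2 windows each. Clec4a3 held the core in only 1 of its 2 windows. Clec5a, Clec12a and Clec4a1 held 2 matches each and Clec4a2 held 0. An AP-1 motif (TGANTCA) was found in Clec4a2 and Clec12a (7.81% of all windows), a C/EBP motif (TTNNGCAA) in Clec12a (10.8%) and an interferon-stimulated response motif (GAAANNGAA) in Clec4b1 (8.56%). Of the members that passed the test between aCSF1R and control, Clec5a held the PU.1 core, Clec4a2 did not and Clec4n had no window. Members that did not pass it, such as Clec4a1 and Clec12a, held the core too. These matches are a description of letters in the windows. The letters of the motifs can overlap one another, as GAGGAA and GAAANNGAA share GAA.

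The 12 libraries held an estimated 30900000 to 36400000 reads each, and 23012 to 25299 genes had a value above 0. The libraries fell into a set of 5 with FPKM (length-scaled fragments relative to depth) sums of 782919 to 921581 and a set of 7 with sums of 609695 to 648413, called higher-sum and lower-sum here. The higher-sum set held control 4 and 7, IL-10-Fc 7, aCSF1R 8 and BF10 6. Between the sets, 9180 of the 15504 tested genes differed (59.2%), so values within the sets are given beside the main ones. The 5 pan-leukocyte markers summed to 358 to 446 TPM in control and 135 to 168 TPM in aCSF1R, and the 6 markers of 4T1 epithelium to 758 to 2567 TPM over all libraries. BF10 3 stood apart by its 9 neutrophil markers, which summed to 17699 TPM against 440 to 3383 TPM in the other 11 libraries, and control 7 by 6 B cell markers at 74.4 TPM against at most 6.02 TPM elsewhere.

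In the summed level of all 9 members, the aCSF1R tumors were lowest. The sum was 387, 213 and 404 TPM in control 4, 5 and 7, 201, 262 and 267 TPM in IL-10-Fc 2, 4 and 7, 67.4, 56.5 and 84.1 TPM in aCSF1R 4, 6 and 8, and 374, 338 and 242 TPM in BF10 3, 6 and 7. The 3 aCSF1R libraries lay below the other 9 libraries, and the ranges of BF10 and control overlapped. Clec4n held the largest share of the sum in control (38 to 43.2%) and Clec7a came next (19 to 24%). In aCSF1R, Clec7a held 23.8 to 38.2% of the sum and Clec4a2 5.06 to 5.82%, against 12 to 16.5% for Clec4a2 in control. The plot of the level of each lectin by library shows the 12 tumors one by one.

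**Figure D1:**
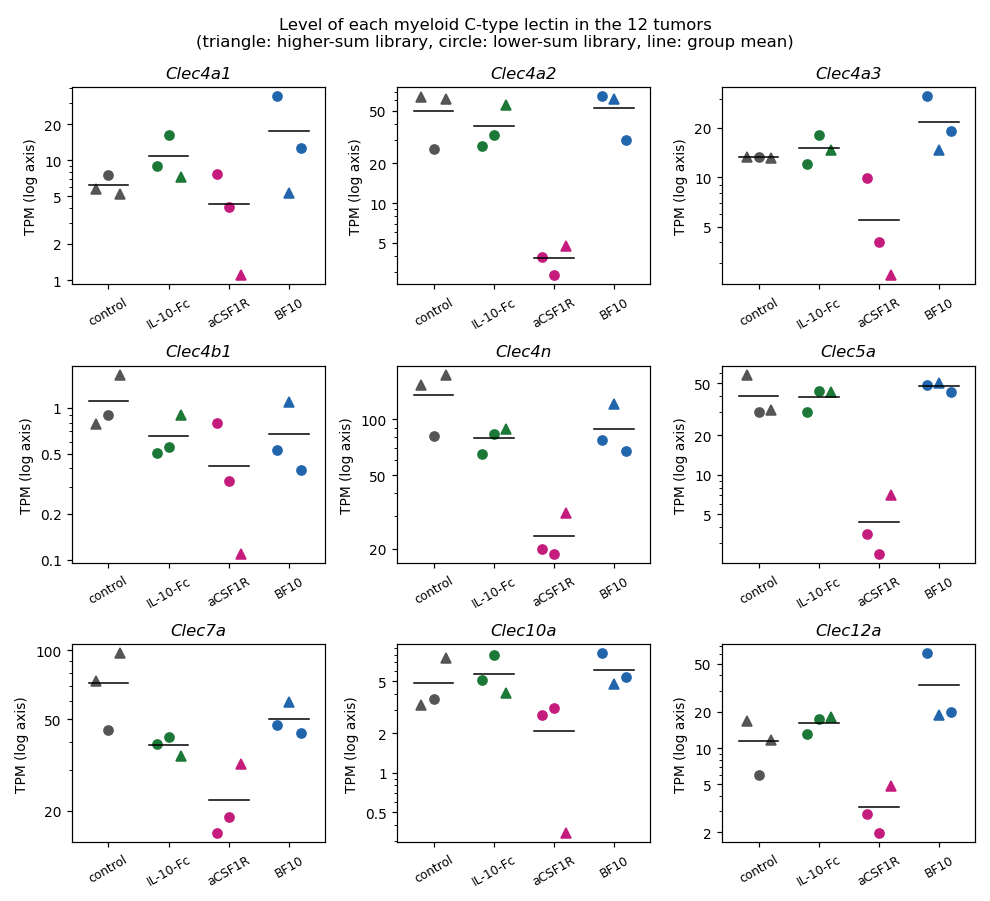
Level of the 9 lectins in TPM on a log axis, 1 point per tumor (3 per group), with triangles for higher-sum libraries, circles for lower-sum libraries and lines for group means. The aCSF1R points lie below the control points without overlap for Clec4a2, Clec4n, Clec5a, Clec7a, Clec10a, Clec12a and Clec4a3, and overlap them for Clec4a1 and Clec4b1.

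The first question was what the antibody alone did to the lectins. Against control, Clec4a2, Clec5a and Clec4n fell in aCSF1R, by 3.32, 2.96 and 2.45 on the log2(TPM + 1) scale (9.96-fold, 7.80-fold and 5.48-fold). Of the 8 tested members 3 were called lower and 0 higher, where called means a Benjamini-Hochberg adjusted p below 0.05 in limma with at least 1.5-fold change; of all tested genes 0.568% were called lower. The groups did not overlap, with aCSF1R lower, for 7 of 8 members, against 3.68% of all tested genes. The members were chosen with earlier results of these data known. Here and in the later comparisons, the shares beside all tested genes therefore describe the members and do not test them as a set. The median over the 8 members was −1.58 and over all tested genes 0.24, a shift that became 0.029 with scaling by the median of ratios and 0.078 without rescaling.

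Clec4a2, the receptor with an inhibitory tail, was at 63.7, 25.5 and 61.7 TPM in control 4, 5 and 7 and at 3.92, 2.85 and 4.75 TPM in aCSF1R 4, 6 and 8. All 3 aCSF1R values were far below the lowest control value, and the lowest control value came from the 1 lower-sum control library. The log2 change was −3.32 ± 0.44 (SE, n = 3 against 3; limma, adjusted p = 0.00458). In lower-sum libraries alone it was −2.61 (limma, adjusted p = 0.183), and in higher-sum libraries alone −3.47. Clec4a2 itself differed between the sets (0.75 higher on the log2 scale in higher-sum libraries, limma, adjusted p = 0.00660), and 2 of 3 control libraries but 1 of 3 aCSF1R libraries were higher-sum.

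Clec5a, the receptor that pairs with DAP12, was at 58.2, 30.1 and 31.5 TPM in control and 3.53, 2.49 and 6.96 TPM in aCSF1R, in the same library order. The highest aCSF1R value, in the higher-sum library aCSF1R 8, was below every control value. The log2 change was −2.96 ± 0.35 (SE, n = 3 against 3; limma, adjusted p = 0.00259), with −2.97 in lower-sum and −2.46 in higher-sum libraries. The gene Tyrobp of its adaptor was at 622, 323 and 640 TPM in control and 81.2, 56.5 and 123 TPM in aCSF1R, a log2 change of −2.60 (limma, adjusted p = 0.00905). The log2 ratio of Clec5a to Tyrobp was −3.73 ± 0.53 in control and −4.39 ± 0.21 in aCSF1R (SD, n = 3; exact permutation test, two-sided, p = 0.2), with ranges that overlapped. With 3 against 3 tumors this test cannot give a p below 0.1, so it cannot decide whether the ratio moved.

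Clec4n, dectin-2, a receptor for fungal mannans, was the most abundant member per length in control, at 152, 81 and 174 TPM. It was at 20, 18.8 and 31.3 TPM in aCSF1R, with no overlap. The log2 change was −2.45 ± 0.34 (SE, n = 3 against 3; limma, adjusted p = 0.00656), −2.01 in lower-sum and −2.34 in higher-sum libraries. Clec4n also differed between the sets (0.67 higher on the log2 scale in higher-sum libraries, limma, adjusted p = 6.06e-04). More control than aCSF1R libraries were higher-sum. With scaling by the median of ratios the change was −2.68 and its adjusted p 0.148 (limma), so the call was lost while the change stayed as large. Fcer1g, its adaptor gene, fell from 249, 221 and 255 TPM to 54.5, 46.4 and 43.8 TPM, by 2.31 on the log2 scale (limma, adjusted p = 6.85e-04). The log2 ratio of Clec4n to Fcer1g was −0.90 ± 0.48 in control and −1.08 ± 0.52 in aCSF1R (SD, n = 3), with ranges that overlapped.

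Clec7a, dectin-1, did not pass the test, with 73.7, 45.1 and 97 TPM in control and 16, 18.8 and 32.1 TPM in aCSF1R. The groups did not overlap, and the log2 change was −1.64 ± 0.33 (SE, n = 3 against 3; limma, adjusted p = 0.0639). The change was −1.33 in lower-sum and −1.37 in higher-sum libraries, and Clec7a was called with the library set as a term (−1.48, limma, adjusted p = 0.00636), without control 5 (adjusted p = 0.0254) and without aCSF1R 8 (adjusted p = 0.0249). The log2 ratio of Clec7a to Clec4n was −0.91 ± 0.12 in control and −0.09 ± 0.20 in aCSF1R (SD, n = 3). Every aCSF1R ratio was above every control ratio, and the exact permutation p of 0.1 (two-sided) is the smallest that 3 against 3 tumors can give.

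Clec12a, the other receptor with an inhibitory tail, was at 16.7, 5.94 and 11.7 TPM in control and 2.83, 1.98 and 4.83 TPM in aCSF1R. The groups did not overlap, yet the log2 change of −1.52 ± 0.50 did not pass (SE, n = 3 against 3; limma, adjusted p = 0.634). The lowest control value was again that of the lower-sum library control 5.

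Clec4a3 and Clec4a1, paralogs of Clec4a2 in the same run, had smaller differences. Clec4a3 was at 13.2, 13.3 and 13.1 TPM in control and 9.88, 4 and 2.53 TPM in aCSF1R, a log2 change of −1.30 ± 0.42 (SE, n = 3 against 3; limma, adjusted p = 0.605). Clec4a1 was at 5.81, 7.61 and 5.26 TPM in control and 7.69, 4.1 and 1.1 TPM in aCSF1R, and the groups overlapped (−0.66 ± 0.65, SE, n = 3 against 3; limma, adjusted p = 0.893). Clec4a1 was higher in lower-sum libraries (mean 13.1 TPM against 4.96 TPM), the opposite of Clec4a2, and its change was −0.37 in lower-sum and −1.64 in higher-sum libraries. The log2 ratio of Clec4a2 to Clec4a3 was 1.82 ± 0.76 in control and −0.30 ± 1.13 in aCSF1R (SD, n = 3; exact permutation test, two-sided, p = 0.1, the smallest possible). The log2 ratio of Clec4a2 to Clec4a1 was 2.92 ± 1.02 and 0.21 ± 1.67, with overlap (exact permutation test, two-sided, p = 0.2). In all 6 such ratios were computed, chosen after the values had been seen, and adjusted over them no p was below 0.2.

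Clec10a, MGL1, was at 3.29, 3.67 and 7.5 TPM in control and 2.75, 3.13 and 0.347 TPM in aCSF1R, where aCSF1R 8 was the lowest of all 12 libraries. The log2 change of −1.01 ± 0.47 did not pass (SE, n = 3 against 3; limma, adjusted p = 0.893), and it was −0.25 in lower-sum and −2.16 in higher-sum libraries. Clec4b1 was at 0.785, 0.905 and 1.66 TPM in control and 0.797, 0.328 and 0.109 TPM in aCSF1R, with overlap. These values rest on an estimated 2 to 34 reads per library over all 12 libraries, few enough that counting error alone is large. In the limma fit without the filter, its change was −0.59 ± 0.25 (SE, n = 3 against 3; adjusted p = 0.955) and it was not called. The estimates for the other members ran from 23 reads (Clec10a in aCSF1R 8) to 7093 reads (Clec4n in control 7).

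**Figure D2:**
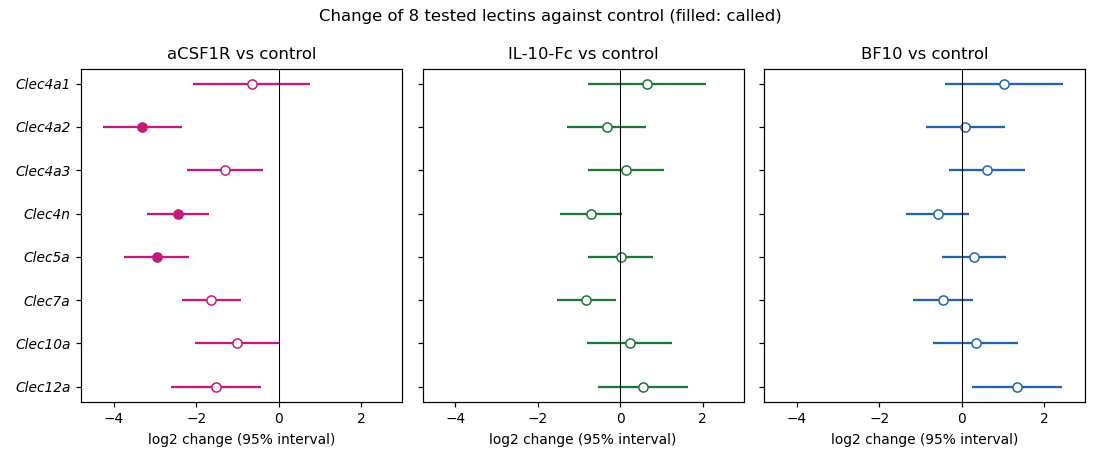
Log2 change of the 8 tested lectins in aCSF1R, IL-10-Fc and BF10 against control (x axis, log2(TPM + 1) scale; point: estimate, line: unadjusted 95% interval of the limma model, filled point: called). All 8 points lie below 0 in aCSF1R, from −3.32 for Clec4a2 to −0.66 for Clec4a1, and no point is filled for IL-10-Fc or BF10.

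Markers of macrophages moved with these members. The 12 macrophage markers summed to 2299 to 3587 TPM in control, 2215 to 3853 TPM in IL-10-Fc, 130 to 942 TPM in aCSF1R and 2504 to 4303 TPM in BF10, and 6 of 12 were called lower in aCSF1R against control; none of the 12 was at 0 in any group. The 8 monocyte markers summed to 279 to 361 TPM in control and 222 to 266 TPM in aCSF1R, with 1 of 8 called lower, and the 9 neutrophil markers had 0 of 9 called. The part of a change in cell numbers in the lectin values was not tested, and in bulk tumors fewer cells of a type and less RNA per cell cannot be told apart.

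IL-10-Fc alone was compared with control in the same way. None of the 8 tested members was called, and 0.00645% of all tested genes were called in either direction. The changes ran from −0.82 for Clec7a to 0.65 for Clec4a1, with a median of 0.081 against 0.35 over all tested genes. In IL-10-Fc 2, 4 and 7, Clec7a was at 39, 42 and 34.5 TPM, below all 3 control values. Its log2 change was −0.82 ± 0.33 (SE, n = 3 against 3; limma, unadjusted p = 0.0290, adjusted p = 0.738), so it did not pass the test. Clec4n was at 65.3, 83.3 and 88.9 TPM, a log2 change of −0.71 with an interval from −1.47 to 0.045, and overlapped control. Over all genes, 224 had an unadjusted p below 0.05 in this comparison.

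BF10 against control gave 0 called members and 0% of all tested genes called by limma, with 234 genes at an unadjusted p below 0.05. The changes ran from −0.58 for Clec4n to 1.34 for Clec12a, with a median of 0.32, equal to the 0.32 of all tested genes. The intervals were wide: for Clec4a2 the change of 0.090 had an interval from −0.87 to 1.05, and for Clec5a the change of 0.30 had one from −0.48 to 1.08. A rise of either gene by 1.5-fold is inside its interval, so they do not show that BF10 and control were alike. Clec4a2 was at 65.2, 61.9 and 30.2 TPM in BF10 3, 6 and 7 and Clec5a at 48.5, 50.5 and 42.9 TPM, and both overlapped the control values.

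Clec12a had the largest change of the 8 tested members in BF10 against control. It was at 60.9, 18.8 and 19.8 TPM in BF10 3, 6 and 7, all above the highest control value of 16.7 TPM, and BF10 3 was more than 3 times the next highest library. The log2 change was 1.34 ± 0.50 (SE, n = 3 against 3; limma, unadjusted p = 0.0205, adjusted p = 0.788), so it did not pass. BF10 3 is also the library with the highest neutrophil marker sum, and Clec4d and Clec4e, lectins next to the Clec4 run that are common on neutrophils, were highest there (70.7 and 25.9 TPM). Its sums of macrophage (4303 TPM), monocyte (604 TPM), T cell (38.5 TPM) and pan-leukocyte markers (840 TPM) were the highest of all libraries as well. Clec4a1 (34.7 TPM) and Clec4a3 (31.4 TPM) were at their highest in the same library. Clec4a2 (65.2 TPM) and Clec10a (8.17 TPM) were too, by small margins over control 4 (63.7 TPM) and IL-10-Fc 4 (7.9 TPM). Clec5a, at 48.5 TPM there and inside the BF10 range, Clec4n, Clec7a and Clec4b1 were highest in control libraries. Whether RNA of neutrophils or of other leukocytes contributed to the Clec12a value was not tested.

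**Figure D3:**
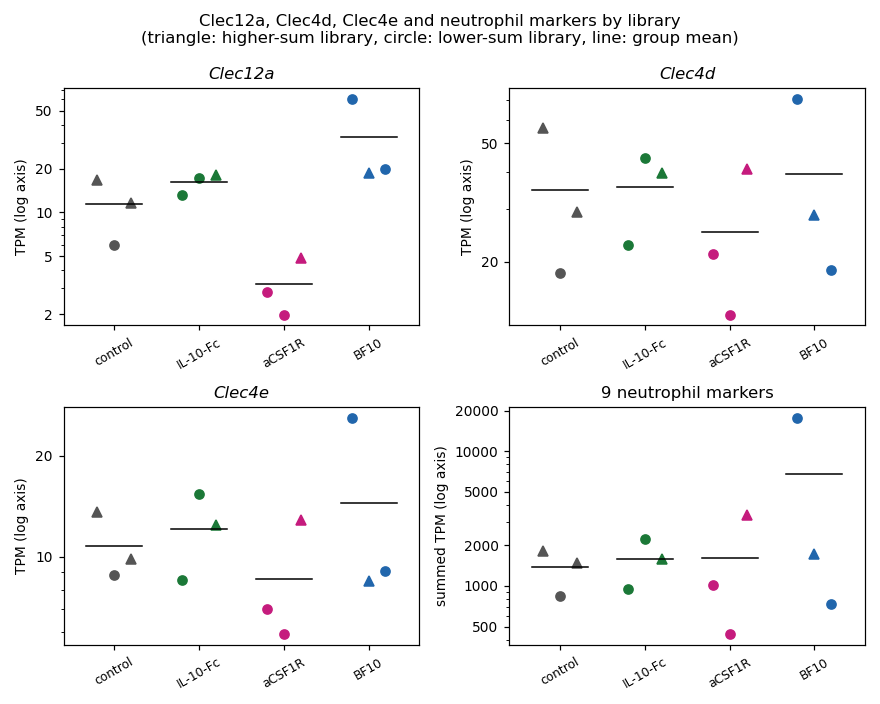
Levels of Clec12a, Clec4d and Clec4e in TPM and the summed TPM of 9 neutrophil markers, each on a log axis, 1 point per tumor with group means as lines. BF10 3 is the highest point in all 4 panels, with 60.9 TPM for Clec12a and 17699 TPM for the marker sum.

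BF10 contains the antibody, and its tumors were compared with those of the antibody alone. Clec4a2, Clec5a, Clec12a and Clec4n were higher in BF10, by 3.41, 3.27, 2.86 and 1.87 on the log2 scale. Of the 8 tested members 4 were called higher and 0 lower, against 0.735% of all tested genes called higher, and for 7 of 8 the groups did not overlap, with BF10 higher (4.33% of all tested genes). The median was 1.89 against 0.056 over all tested genes. This comparison and that of aCSF1R with control share the 3 aCSF1R libraries, so their values do not stand independently.

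Clec4a2 was at 65.2, 61.9 and 30.2 TPM in BF10 and 3.92, 2.85 and 4.75 TPM in aCSF1R, and the groups lay far apart (3.41 ± 0.44, SE, n = 3 against 3; limma, adjusted p = 0.00462). Clec5a was at 48.5, 50.5 and 42.9 TPM in BF10 and 3.53, 2.49 and 6.96 TPM in aCSF1R, a change of 3.27 ± 0.35 (SE, n = 3 against 3; limma, adjusted p = 0.00171). These changes were within the sets 3.38 and 3.45 for Clec4a2 (lower-sum first) and 3.55 in lower-sum libraries for Clec5a, with a smaller difference in higher-sum libraries. With scaling by the median of ratios, 1 of 8 members was called (Clec4a3), and the changes of Clec4a2 and Clec5a were 3.22 and 3.06 with adjusted p of 0.0688 and 0.0506 (limma).

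Clec12a was at 60.9, 18.8 and 19.8 TPM in BF10 and 2.83, 1.98 and 4.83 TPM in aCSF1R (2.86 ± 0.50, SE, n = 3 against 3; limma, adjusted p = 0.0240). Without BF10 3 the change was 2.32 with an adjusted p of 0.0818 (limma), and the call was lost. It was also lost without IL-10-Fc 4 (0.0532), aCSF1R 4 (0.0913), aCSF1R 6 (0.128) or BF10 7 (0.0553). The same held without the filter (2.86, 0.0613) and with the median of ratios (2.65, 0.136), so the call was close to the threshold. Within the sets the change of Clec12a was 3.41 in lower-sum and 1.77 in higher-sum libraries. Clec4n was at 76.9, 121 and 67.7 TPM in BF10 and 20, 18.8 and 31.3 TPM in aCSF1R (1.87 ± 0.34, SE, n = 3 against 3; limma, adjusted p = 0.0352). Its call was lost when any one of 9 libraries was left out, with adjusted p up to 0.172 (without aCSF1R 6), the exceptions being control 5, control 7 and aCSF1R 8. It was also lost without rescaling (1.84, limma, adjusted p = 0.180), without the filter (1.87, 0.0776) and with the median of ratios (1.72, 0.665).

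The members not called lay on the same side of 0. Clec4a3 was at 31.4, 14.6 and 19.2 TPM in BF10, all above the aCSF1R values, with a change of 1.91 (limma, adjusted p = 0.0879), and Clec7a was at 47.3, 59.7 and 43.8 TPM with a change of 1.19 (limma, adjusted p = 0.278). Clec10a, at 8.17, 4.81 and 5.43 TPM, had a change of 1.35 (limma, adjusted p = 0.638). Clec4a1, at 34.7, 5.32 and 12.7 TPM, overlapped aCSF1R (1.69, limma, adjusted p = 0.861). Clec4a3 was called without rescaling, with the median of ratios, with the set as a term and without aCSF1R 4, where its adjusted p ran from 0.00897 to 0.0424.

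**Figure D4:**
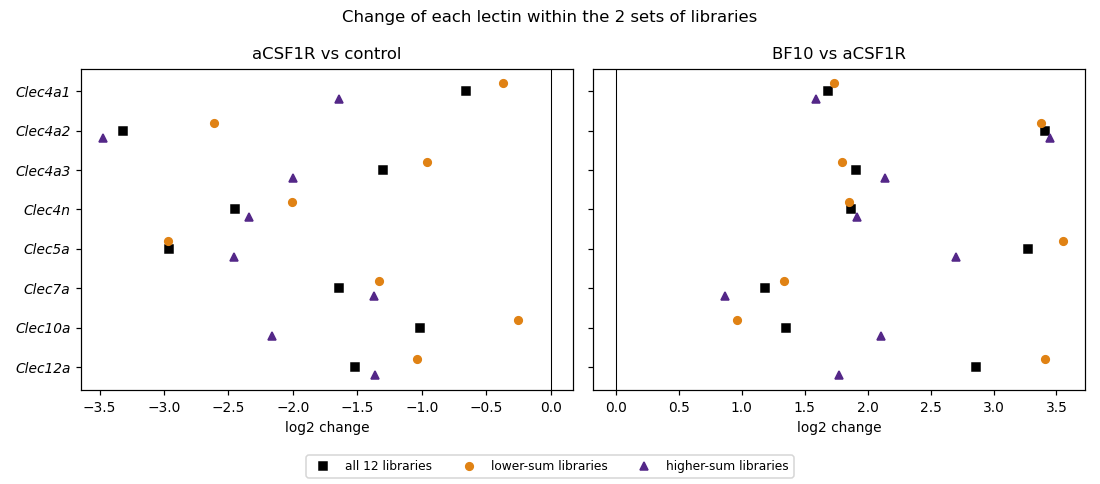
Log2 change of each tested lectin in aCSF1R against control and in BF10 against aCSF1R (x axis), from all 12 libraries (squares), the 7 lower-sum libraries (circles) and the 5 higher-sum libraries (triangles, 1 or 2 tumors per group, no test). All points of a panel lie on the same side of 0, from −3.47 to −0.25 in the first and from 0.87 to 3.55 in the second.

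IL-10-Fc was also set against aCSF1R, and here Clec5a and Clec4a2 were called higher, 2 of 8 members against 0.542% of all tested genes. In IL-10-Fc, Clec5a was at 30.3, 43.3 and 43.1 TPM (2.97 ± 0.35, SE, n = 3 against 3; limma, adjusted p = 0.00402) and Clec4a2 at 27.2, 32.8 and 55.5 TPM (2.98 ± 0.44, SE, n = 3 against 3; limma, adjusted p = 0.0129). The groups did not overlap for 7 of 8 members, with IL-10-Fc higher, against 5.90% of all tested genes. The Clec4a2 call was lost without IL-10-Fc 4 (limma, adjusted p = 0.0713), IL-10-Fc 7 (0.0766) or aCSF1R 6 (0.0714). Within the sets the change of Clec4a2 was 2.83 in lower-sum and 3.30 in higher-sum libraries, and that of Clec5a 3.23 and 2.47. With the median of ratios the changes of Clec4a2 and Clec5a were 2.74 and 2.71 with adjusted p of 0.213 and 0.133 (limma), past the threshold in neither. Clec12a was at 13.2, 17.4 and 18.1 TPM, above aCSF1R in every library, but did not pass (2.07, limma, adjusted p = 0.168). BF10 against IL-10-Fc gave 0 of 8 members called and 0% of all tested genes, with 42 genes at an unadjusted p below 0.05, and the changes ran from 0.10 for Clec10a to 0.79 for Clec12a.

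The non-additive contrast was the change in BF10 minus the changes in both parts, each against control. It asked whether BF10 differed from the sum of its parts on the log2(TPM + 1) scale. The contrast shares the 3 aCSF1R libraries with the comparisons above, so its values do not stand independently of them. It was above 0 for all 8 tested members, from 1.03 for Clec4a1 to 3.74 for Clec4a2, with a median of 2.16 against −0.28 over all tested genes. Clec4a2 (3.74 ± 0.62, SE; limma, adjusted p = 0.0382) and Clec5a (3.26 ± 0.50, SE; limma, adjusted p = 0.0301) were called, 2 of 8 members against 0.284% of all tested genes. For Clec4a2 the sum of the parts was a fall, since aCSF1R alone changed it by −3.32 and IL-10-Fc by −0.33, while the change in BF10 was 0.090. These calls depended on single libraries: 0 members were called after any one of 10 libraries was left out, 1 without aCSF1R 8 and 3 without control 5. Clec4n (2.58, limma, adjusted p = 0.0753) and Clec7a (2.01, limma, adjusted p = 0.240) did not pass.

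Of 32 other C-type lectin receptors, 21 were tested and 2 were called lower in aCSF1R against control. Mrc1, the macrophage mannose receptor, fell from 45.9, 45.4 and 65.8 TPM to 7.98, 6.82 and 3.4 TPM, by 2.96 on the log2 scale (limma, adjusted p = 0.00111). Mgl2, the close relative of Clec10a, fell from 7.19, 13.6 and 16.3 TPM to 0.683, 2.18 and 0.184 TPM, by 2.78 (limma, adjusted p = 0.0204). The median over the 21 was −0.28, and 15 of the 21 were below 0. Mrc1 was higher in BF10 than in aCSF1R (2.50, limma, adjusted p = 0.00329), in IL-10-Fc than in aCSF1R (2.56, limma, adjusted p = 0.00391) and in the non-additive contrast (2.91, limma, adjusted p = 0.0231). Clec4f was at 0 in all 12 libraries.

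Clec4d, which pairs with the same adaptor as Clec4n, did not pass in aCSF1R against control and had values spread over both groups. It was at 56.4, 18.4 and 29.5 TPM in control and 21.2, 13.3 and 41.1 TPM in aCSF1R (−0.45, limma, adjusted p = 0.893). The log2 ratio of Clec4n to Clec4d was 2.05 ± 0.57 in control and 0.01 ± 0.45 in aCSF1R (SD, n = 3), and every control ratio exceeded every aCSF1R ratio (exact permutation test, two-sided, p = 0.1, the smallest possible). Clec4e, the Mincle receptor, had a change of −0.34 (limma, adjusted p = 0.893).

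Of the 16 signalling genes below these receptors, all were tested and 2 were called lower in aCSF1R against control, Fcer1g and Tyrobp. In BF10 against aCSF1R the same 2 genes were called higher, by 2.53 (Fcer1g, limma, adjusted p = 4.42e-04) and 2.43 (Tyrobp, limma, adjusted p = 0.0132). In IL-10-Fc against aCSF1R they were higher by 2.26 and 2.20 (limma, adjusted p = 0.00125 and 0.0311), and in the non-additive contrast Fcer1g was called (2.58, limma, adjusted p = 0.00795). The median of the 16 genes in aCSF1R against control was −0.60. Card9, the adaptor protein below Syk, was at 5.27, 17.9 and 4.67 TPM in control and 3.92, 2.8 and 0.619 TPM in aCSF1R, without overlap, and did not pass (−1.49, limma, adjusted p = 0.893), as Syk did not (−0.63, limma, adjusted p = 0.893).

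**Figure D5:**
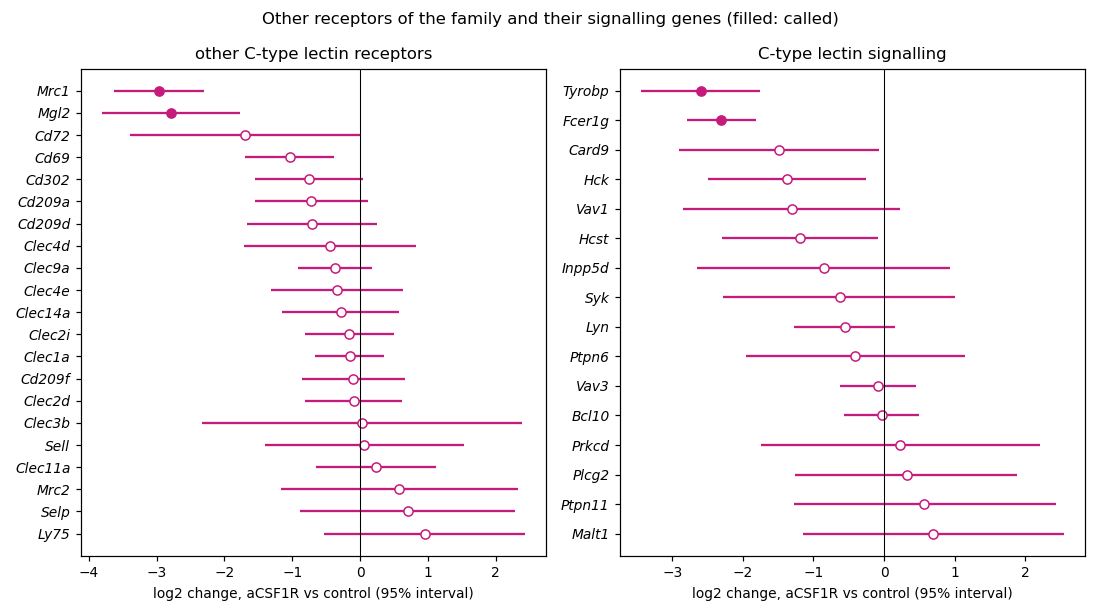
Log2 change in aCSF1R against control (x axis, unadjusted 95% interval as a line) of the 21 tested other C-type lectin receptors and the 16 signalling genes, ordered by change. The filled points, which are called, are Mrc1 and Mgl2 in the first panel and Tyrobp and Fcer1g in the second.

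Profiles over the 12 libraries were compared with those of all other 15503 tested genes, by the root mean square difference of log2(TPM + 1) after centring each gene on its mean. The genes most like Clec4a2 were Ms4a6d (0.33), Ms4a6b (0.38) and Bcl2a1b (0.38), and those most like Clec5a were Lair1 (0.32), Pf4 (0.34) and Ms4a6d (0.36). Those most like Clec4n were Bcl2a1d (0.23), Cd48 (0.26) and Gpr65 (0.26), and those most like Clec7a were Rnase6 (0.28), Tmsb4x (0.28) and P2ry14 (0.31). Clec12a had the least close neighbours, Alox5ap (0.43), Dok3 (0.48) and Dcstamp (0.50).

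For the remaining members, the neighbours were Pirb (0.22), Fgr (0.23) and Gm15922 (0.24) for Clec4a1, Dpep2 (0.23), Susd3 (0.24) and Lmo2 (0.25) for Clec4a3, and Cyba (0.26), Gm2a (0.27) and Tnfsfm13 (0.28) for Clec10a. Among the members, the closest pairs were Clec4n with Clec7a (0.40), Clec4a2 with Clec5a (0.41), Clec4a3 with Clec10a (0.44) and Clec4a1 with Clec4a3 (0.45). The pair farthest apart was Clec4a1 with Clec4a2 (1.32), members of the same chromosome run. These are descriptions over 12 libraries that share the 2 sets, whose difference enters every profile.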

How the data were processed

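RNA from 12 bulk 4T1 tumors was measured, 3 per group. The authors deposited FPKM values with 2 decimals for 55401 genes. Per the submitters' processing notes, the tools were STAR 2.7.5a, RSEM 1.3.3 and DESeq2 1.28.0, with mm10 and GRCm38. Per the study's methods, libraries were stranded and made from polyadenylated RNA. Further deposited tables hold the authors' own DESeq2 comparisons and were not used. All table columns matched a sample by name (0 left over).

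FPKM are not counts. Each library was brought to the same total (TPM), and genes with at least 1 TPM in at least 3 of 12 libraries were tested on log2(TPM + 1), which understates changes of low genes. limma 3.58.1 (R 4.3.3; eBayes with trend) was fitted to all 12 libraries with 1 mean per group. Ratios used an exact permutation test. A gene was called at a Benjamini-Hochberg adjusted p below 0.05, over all 15504 tested genes, and at least 1.5-fold change. Read numbers were estimated from the steps of the FPKM values, with lengths from GENCODE M21 (GRCm38), which may differ from the annotation of the authors. The code was tested on simulated data.

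The members and lists were chosen with earlier results of these data known. Named genes were the members, genes of the other lectin and signalling lists called in any comparison, and the 3 closest profiles per member; Clec4d, Clec4e, Card9, Syk and Clec4f were added after their values were seen. Alternatives were a pseudocount of 0.1, no rescaling, median-of-ratios scaling, no filter, the library set as a term, lower-sum libraries alone, a replicate block and leaving out each library. Values in the higher-sum libraries alone were added after seeing the data.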

Additional observations from a re-analysis of the deposited data

Results flagged for a closer look

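The effect of BF10 differed from the sum of the effects of IL-10-Fc and aCSF1R for a pair of members, by the test of that difference in limma. This contrast shares the aCSF1R libraries with the other comparisons of aCSF1R and is not independent of them. For Clec4a2 the difference was 3.74 on the log2 scale and for Clec5a it was 3.26. Both calls were fragile. Of 19 alternatives, the call of Clec4a2 was kept in 3 and lost in 16, and that of Clec5a was kept in 4 and lost in 15. Both differences stayed above 0 throughout, from 3.17 to 4.16 for Clec4a2 and from 2.96 to 3.81 for Clec5a. With 3 tumors per group, no group was large enough to look for a single tumor far from the others.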

How the results depend on the processing

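With 3 tumors per group and 8 residual degrees of freedom, the precision is limited by the number of tumors. In aCSF1R against control, 3 members were called, 2 in the lower-sum libraries alone or with the median of ratios, 4 with the library set as a term, 0 with the replicate block and 3 to 4 with 1 library left out. In BF10 against aCSF1R, 4 members were called, but 1 with the median of ratios, 2 without a filter, 6 with the set term, 0 with the replicate block and 2 to 4 with 1 library left out, the 2 being without IL-10-Fc 4, aCSF1R 6, BF10 3 or BF10 7. In IL-10-Fc against aCSF1R, 2 members were called, but 0 with the median of ratios, 4 with the set term, 3 in the lower-sum libraries, 0 with the replicate block and 1 to 3 with 1 library left out, the 3 being without control 5. In the non-additive contrast, 2 members were called, but 0 without rescaling, with the median of ratios, without a filter, in the lower-sum libraries and with the replicate block, 4 with the set term and 0 to 3 with 1 library left out. In the other 3 comparisons, 0 members were called under every alternative run. Over all tested genes in aCSF1R against control, 88 were called, 34 in the lower-sum libraries, 135 with the median of ratios and 312 with the set term. In BF10 against aCSF1R, 114 were called, 140 with the median of ratios, 79 without a filter and 437 with the set term. In IL-10-Fc against aCSF1R these counts were 84, 76, 64 and 330. The non-additive contrast called 44 higher and 1 lower, and 41, 27 and 188 under these alternatives. Member counts under an alternative therefore follow in part how many genes it called. The block leaves 2 residual degrees of freedom. It called 0 of all genes in aCSF1R against control and the non-additive contrast, and 1 each in BF10 and IL-10-Fc against aCSF1R. Its counts say nothing particular about the members. With the block, the changes in aCSF1R against control were −4.04, −3.21 and −3.55 for Clec4a2, Clec4n and Clec5a, each with an adjusted p of 0.0530. In BF10 against aCSF1R without rescaling, the 4 called members held Clec4a3 in place of Clec4n. The cause of the other lost or gained calls was not tested. Whether the numbers pair the samples could not be decided: same-numbered libraries had r from −0.66 to 0.42 (7 pairs) and others from −0.80 to 0.78 (47 pairs). These correlations also followed the library sets. Same-numbered libraries of the same set had r of 0.35 (control 7 with IL-10-Fc 7) and 0.42 (IL-10-Fc 4 with aCSF1R 4). Those of different sets had r from −0.66 to −0.26.

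Only values that were not called changed sign, on the log2 scale. For BF10 against control, Clec4a2 was −0.10 without rescaling, −0.28 with the median of ratios, −0.69 with the block and −0.33 to 0.44 with 1 library left out. In that comparison Clec5a was −0.068 with the median of ratios, Clec7a 0.013 in the lower-sum libraries and Clec10a −0.011 with the block. For IL-10-Fc against control, Clec4a2 was 0.22 in the lower-sum libraries. Clec4a3 was −0.049 and Clec5a −0.20 without rescaling, and Clec4a3 was −0.26, Clec5a −0.42 and Clec10a −0.16 with the median of ratios. Clec5a ran from −0.16 to 0.31 with 1 library left out. Clec4a1 was 0.40 with the block in aCSF1R against control and −0.19 in the non-additive contrast. Between BF10 and IL-10-Fc, the block gave −0.15 for Clec4a2, −0.10 for Clec4n and −0.17 for Clec10a, and the lower-sum libraries gave −0.031 for Clec4n. With 1 library left out, Clec4a1 ran from −0.27 to 0.98, Clec4n from −0.12 to 0.30 and Clec10a from −0.090 to 0.33. Of 1064 log2 changes recomputed under the alternatives listed in the methods other than the higher-sum libraries alone, 947 kept their direction and side of the threshold, 70 lost a call, 17 gained one and 30 changed sign. In the higher-sum libraries alone, with no test, 6 of 56 had the opposite sign, from −0.39 (Clec4a1, BF10 against IL-10-Fc) to −0.012 (Clec4a3, same comparison).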
